A study of Mus musculus with 10 samples.

Results

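The genes described here are 50 non-collagen components of the extracellular matrix: proteoglycans, glycoproteins, elastic fibre proteins, and the enzymes that cross-link matrix or make hyaluronan. They were chosen by name from the 55421 genes of the deposited table, all 50 were found, and all 50 passed the filter on low counts that left 18509 genes for testing. The samples were skin ulcers that surgery had produced in db/db mice, which carry a leptin receptor mutation and develop obesity with diabetes. Ulcer tissue was taken after 7 days of administration from mice treated with Fu Huang ointment in addition to saline (5 libraries, ointment 1 to 5) and from mice treated with saline alone (5 libraries, saline 1 to 5). All 10 libraries came from this mutant strain, and no undiseased or unwounded skin was analysed here. The labels give neither age nor sex, and they do not say whether each library came from its own animal, so the p-values rest on sample-to-sample spread that could be partly technical.

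Granulation tissue first fills a skin wound with a provisional matrix of fibronectin, tenascin, thrombospondins, osteopontin and hyaluronan, which fibroblasts later replace with a collagen-rich matrix. Small leucine-rich proteoglycans such as decorin and lumican bind collagen fibrils and set their spacing. Elastic fibres form on a scaffold of fibrillin microfibrils, with fibulins, emilins and microfibril-associated proteins helping to place elastin, which lysyl oxidases then cross-link. Latent TGF-beta binding proteins (LTBPs) tie the inactive form of the growth factor TGF-beta to that scaffold, and matricellular proteins such as the CCN family and SPARC alter how cells respond to the matrix.

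The values were estimated counts per gene, with totals of 47.8 to 62.9 M (mega) per library. Each library's level is given as CPM, counts scaled to the library's size after TMM normalization. Levels of different genes are compared only as TPM, which also allows for the joined length of all annotated exons of a gene. That length can exceed that of the transcripts present, which would lower the TPM of such genes. Groups were compared with edgeR's quasi-likelihood test, with p-values adjusted by the Benjamini-Hochberg method over the 18509 genes and a threshold of 0.05. Fold changes are ointment over saline. In bulk tissue, fewer cells of a type and less RNA per cell cannot be told apart. Skin and wound markers were present in every library: 8 keratinocyte markers summed to 15882 to 29276 CPM in ointment ulcers and 20223 to 28922 CPM in saline ulcers, and 12 fibroblast markers to 16824 to 56789 CPM in ointment ulcers and 33689 to 51824 CPM in saline ulcers.

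The ulcers carried a matrix programme led by matricellular glycoproteins and small proteoglycans, and its summed level was close in the 2 groups. The 50 genes made up 1.68 ± 0.423% of all TPM in ointment ulcers and 1.63 ± 0.317% in saline ulcers (SD, n = 5 each). Sparc, a collagen-binding matricellular protein, alone held 18.5 ± 8.69% of the TPM of the 50 genes in ointment ulcers and 17.4 ± 4.96% in saline ulcers. Spp1 (osteopontin) held 14.2 ± 3.16% in ointment ulcers and 10.7 ± 6.10% in saline ulcers. Lum held 6.76 ± 2.48% in ointment ulcers and 11.4 ± 3.52% in saline ulcers, and Postn, the fibroblast glycoprotein periostin, held 6.67 ± 2.68% in ointment ulcers and 10.4 ± 4.14% in saline ulcers. Averaged over all 10 libraries, 26 of the 50 genes lay above 100 TPM. The 6 genes under 10 TPM were the 3 hyaluronan synthases Has1, Has2 and Has3, the small proteoglycan Omd (osteomodulin), the lysyl oxidase Loxl4 and the cartilage proteoglycan Acan, which was lowest at 0.698 TPM.

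**Figure D1:**
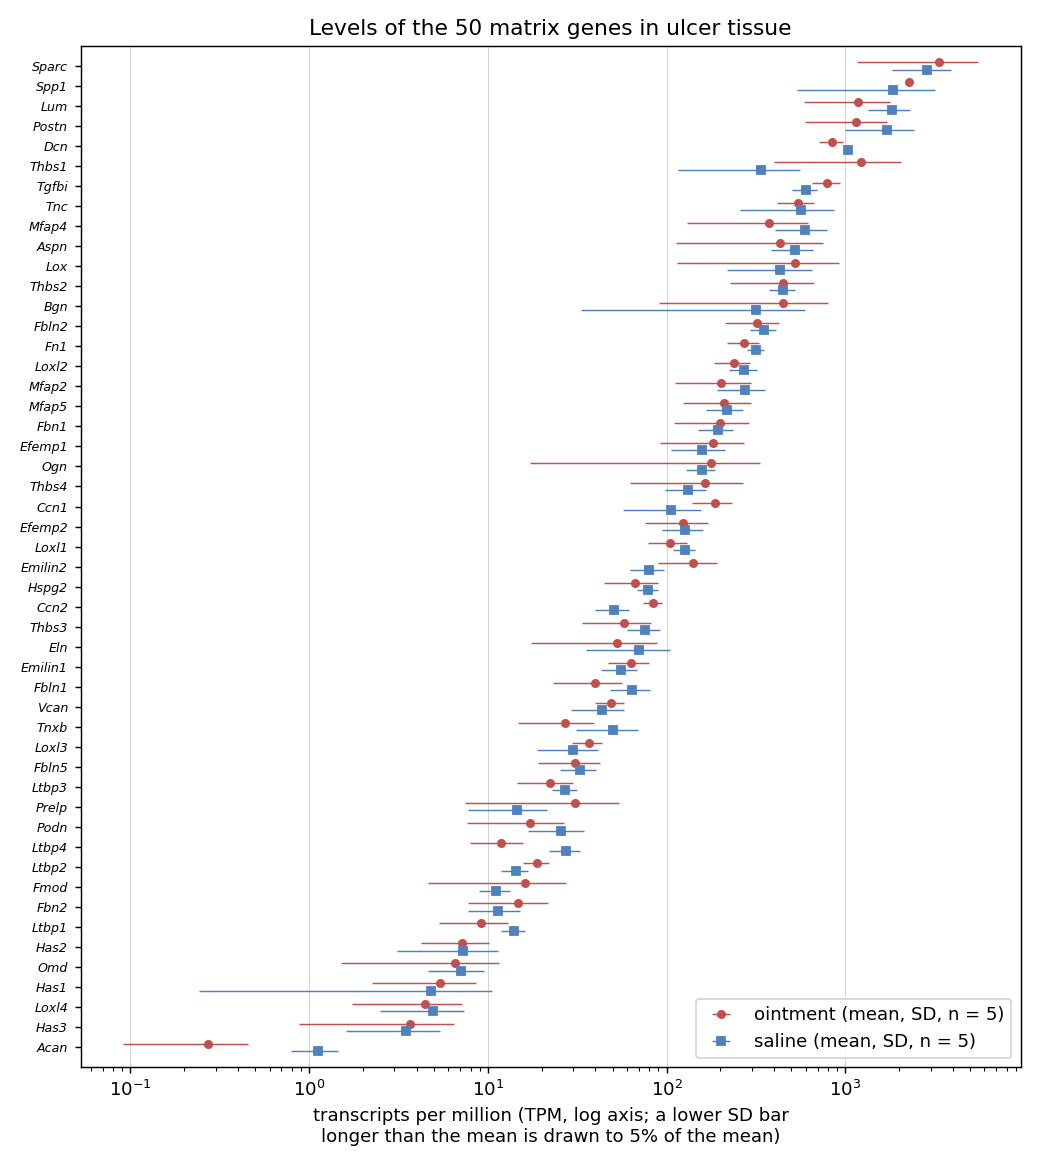
Mean level of each of the 50 genes in TPM on a log axis, with SD over 5 libraries, ointment in red and saline in blue, ordered by the mean of all libraries. Levels run from Sparc at 3103 TPM to Acan at 0.698 TPM, and for most genes the SD bars of the 2 groups overlap.

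Between the groups, 1 of the 50 genes passed the threshold (2.0%, where 1.67% of all genes tested did, 0.692% higher and 0.983% lower): Ltbp4, which fell with ointment. No member rose. The groups did not overlap for 3 members (6.0%, where 6.54% of all genes tested did not overlap, 3.11% with ointment above and 3.44% with ointment below): Ltbp4 and Acan lay lower in every ointment library than in any saline library, and Ccn2 lay higher. Unadjusted p was under 0.05 for 13 members, or 26.0%, where it was under 0.05 for 17.1% of all genes tested. Of the 13, 7 were higher and 6 lower, where 8.59% of all genes tested were higher at that p and 8.56% lower. The median log2 fold change of the 50 genes was 0.03, with 27 positive and 23 negative, and that of all genes tested was -0.00. The DESeq2 test called 6 members (Ltbp4, Acan, Ccn2, Emilin2, Ltbp2 and Thbs1) where it called 1677 of the 18509 genes in all. The limma voom test called Ltbp4 and Acan where it called 353 of the 18509 genes in all. The edgeR, unadjusted p, DESeq2 and limma voom counts given below for other lists have the same backgrounds. For 19 of the 50 genes the 95% interval of the fold change lay within 2-fold either way, which was so for 50.1% of all genes tested. For the other 31 the interval reached beyond 2-fold in at least 1 direction, so for those that missed the threshold these libraries do not bound the change to under 2-fold.

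**Figure D2:**
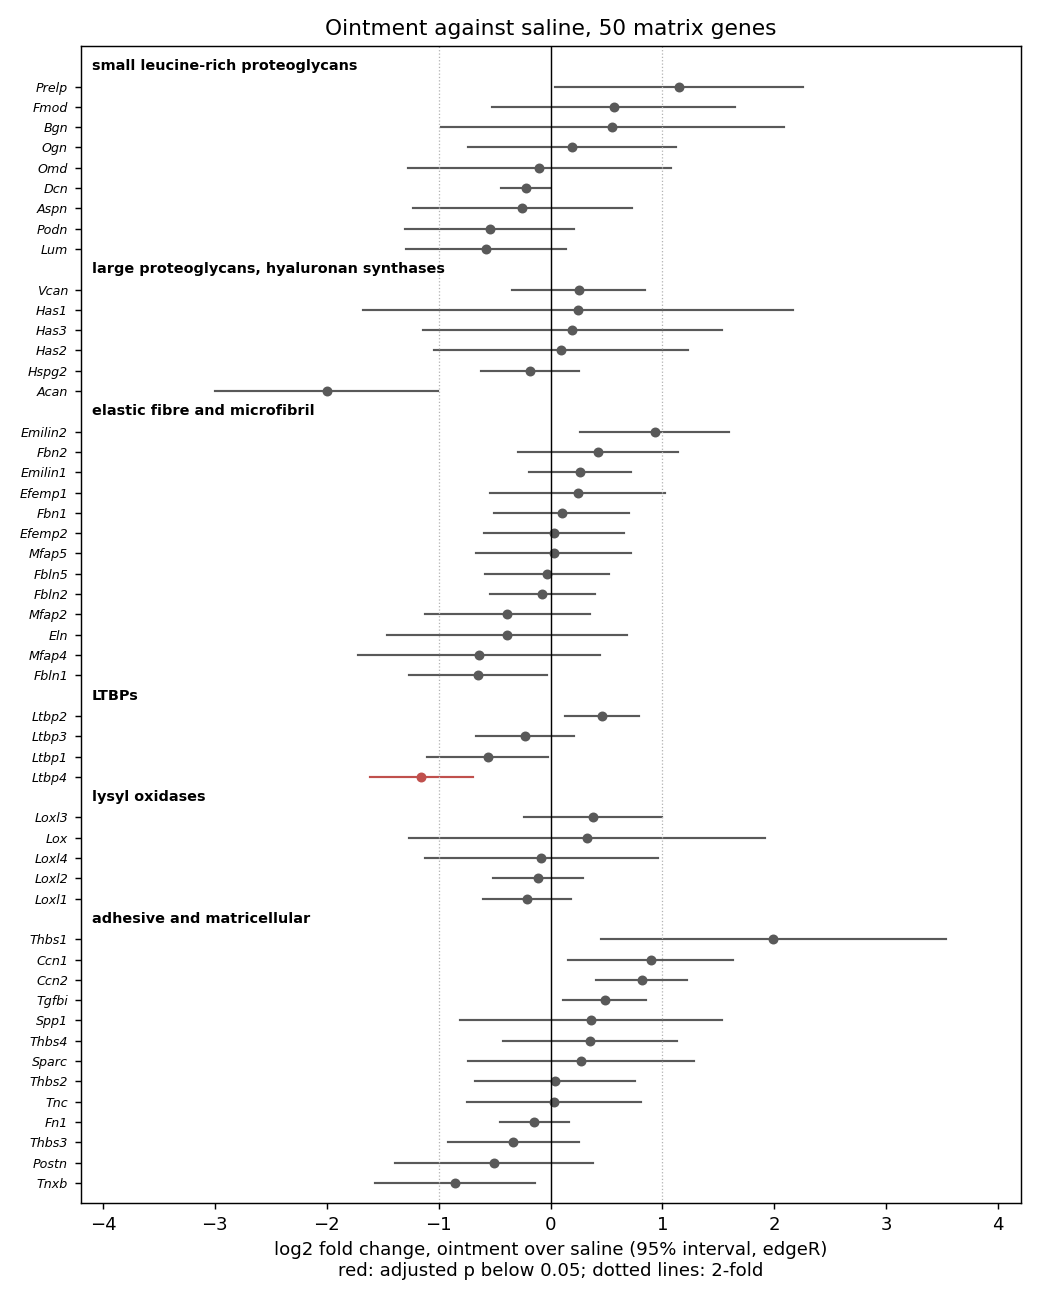
Log2 fold change of each gene, ointment over saline, with its 95% interval from edgeR, grouped by role; dotted lines mark 2-fold. Ltbp4 in red, at -1.16, is the gene past the threshold, and Acan at -2.0 and Thbs1 at 1.99 have the largest changes.

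Of the 4 LTBPs, Ltbp4 fell and the other 3 did not pass the threshold. Ltbp4, whose protein binds latent TGF-beta and also helps to deposit elastin, had 33.9, 22.6, 25.1, 32.7 and 17.5 CPM in ointment ulcers 1 to 5, against 61.9, 56.7, 75.9, 45.1 and 54.0 CPM in saline ulcers 1 to 5. Every ointment library lay below every saline library, with 11.2 CPM between the highest ointment and the lowest saline value. The means were 26.4 ± 6.92 CPM in ointment ulcers and 58.7 ± 11.4 CPM in saline ulcers (SD, n = 5 each), a log2 fold change of -1.16 (SE 0.21, 95% interval -1.62 to -0.70, edgeR adjusted p = 0.0285). The gene (chromosome 7, 27305136 to 27337692 on GRCm38, minus strand) overlaps no other annotated gene. The call is close to the threshold: it was kept in 4 of the 10 fits that left out 1 library and lost without ointment 2, 3 or 5 or saline 1, 2 or 3, with adjusted p up to 0.077, while the fold change stayed between -1.26 and -1.04.

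The other LTBPs did not pass the adjusted threshold. Ltbp2, which is not known to bind latent TGF-beta and is found on microfibrils, averaged 53.8 ± 6.33 CPM in ointment ulcers and 39.1 ± 7.07 CPM in saline ulcers (log2 fold change 0.46, SE 0.15, edgeR adjusted p = 0.145). Ltbp1, the widely expressed carrier of latent TGF-beta, averaged 33.7 ± 11.9 CPM in ointment ulcers and 49.8 ± 8.11 CPM in saline ulcers (log2 fold change -0.56, SE 0.24, edgeR adjusted p = 0.273). Ltbp3, another carrier of latent TGF-beta and the member of this family with the highest TPM, had 99.1, 56.2, 60.3, 80.9 and 52.4 CPM in ointment ulcers and 80.0, 95.5, 92.5, 61.6 and 79.2 CPM in saline ulcers. Its groups overlapped widely. Summed over the 4 LTBPs, libraries held 141 to 229 CPM in ointment ulcers and 194 to 258 CPM in saline ulcers.

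**Figure D3:**
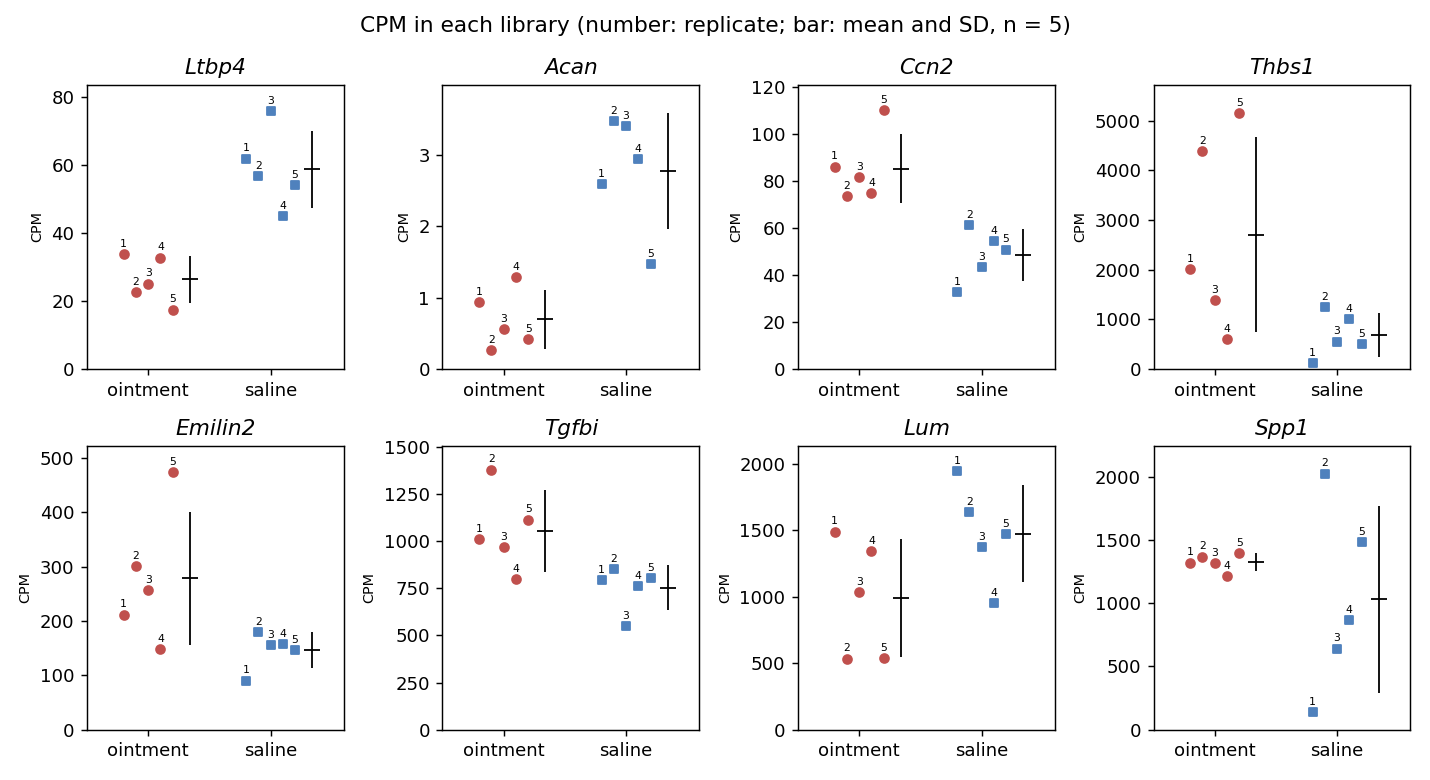
CPM of 8 genes in each library, with replicate numbers, and the mean and SD of each group (n = 5). The groups are separate for Ltbp4, Acan and Ccn2 and overlap for Thbs1, Emilin2, Tgfbi, Lum and Spp1.

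The start-site sequences of 3 genes are shown because Ltbp4 and Acan were the members that lay lower in every ointment library, and Ccn1 is the CCN gene with an entry in the promoter table used. They are the 250 bases before the start in RefSeq (GRCm38.p6), each on the strand of its gene, 5′ to 3′. Capitals mark 4 motifs on either strand. The TATA box was searched as the letters TATAAA. The site of TEAD factors was searched as GGAATG, the site of AP-1 as TGANTCA, and the GC box as GGGCGG. Ltbp4 has 3 starts in the table, and the window shown lies at chr7:27333664-27333913 on the minus strand, within the span of the annotated gene. Which start was in use in this tissue was not tested. Acan is at chr7:79052976-79053225 on the plus strand and Ccn1 at chr3:145649986-145650235 on the minus strand.
Ltbp4: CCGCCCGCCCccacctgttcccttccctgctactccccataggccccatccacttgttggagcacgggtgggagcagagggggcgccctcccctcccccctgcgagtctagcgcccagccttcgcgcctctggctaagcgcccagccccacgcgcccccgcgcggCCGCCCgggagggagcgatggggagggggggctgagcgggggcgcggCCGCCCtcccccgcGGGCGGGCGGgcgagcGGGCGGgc
Acan: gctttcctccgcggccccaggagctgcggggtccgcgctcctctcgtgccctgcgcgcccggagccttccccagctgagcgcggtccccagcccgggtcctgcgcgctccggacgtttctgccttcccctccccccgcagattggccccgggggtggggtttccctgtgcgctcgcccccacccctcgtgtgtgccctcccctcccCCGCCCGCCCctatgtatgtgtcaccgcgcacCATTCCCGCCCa
Ccn1: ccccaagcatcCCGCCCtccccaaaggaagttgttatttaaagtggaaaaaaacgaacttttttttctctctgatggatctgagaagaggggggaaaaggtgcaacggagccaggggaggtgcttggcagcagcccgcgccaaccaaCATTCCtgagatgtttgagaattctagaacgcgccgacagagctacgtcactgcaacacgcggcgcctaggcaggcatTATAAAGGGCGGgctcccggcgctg
The Ltbp4 window holds 7 GC boxes, some of them overlapping, and none of the other motifs. The Acan window holds 3 GC boxes and a TEAD motif that begins 12 bases before the start and shares a base with the last GC box. The Ccn1 window holds a TATA box that begins 25 bases before the start, directly followed by a GC box, and a TEAD motif at 103 bases. Of all 32851 windows of this length in the table, 32.7% held the GC box, 12.4% the TATA box, 12.6% the TEAD motif and 6.75% the AP-1 motif. Of the 50 genes, 35 matched the table, with 48 windows. The GC box was in at least 1 window of 21 of these 35 genes, the TATA box in 7, the TEAD motif in 6 and the AP-1 motif in 2. Counted per window, as the shares of all windows are, 54.2% of the 48 held the GC box. The TATA box was in 16.7% of the 48, the TEAD motif in 12.5% and the AP-1 motif in 4.17%. These matches describe the letters in the windows and are not evidence of binding.

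Among the small leucine-rich proteoglycans, 0 of 9 passed the edgeR threshold, 2 had unadjusted p under 0.05, and DESeq2 and limma voom called 0. The median log2 fold change was -0.10. Lum (lumican, a keratan sulfate proteoglycan on collagen fibrils) was the most abundant in TPM, and had 1489, 535, 1034, 1342 and 540.4 CPM in ointment ulcers, against 1945, 1635, 1372, 953 and 1468 CPM in saline ulcers. Ointment 2 and 5 were the lowest of the 10 libraries, and the other ointment libraries lay within the saline range. Dcn (decorin, which coats collagen fibrils and binds TGF-beta) was steadier, with 1696, 1403, 1819, 1930.2 and 1758 CPM in ointment ulcers and 2085, 2023, 1948, 1918 and 2066 CPM in saline ulcers. Its groups met at a single point, ointment 4 lying above saline 4 (log2 fold change -0.22, SE 0.10, edgeR adjusted p = 0.284). Dcn averaged more CPM than Lum in both groups but less TPM. The exon length used was 5838 bases for Dcn, over 5 transcripts, and 2448 bases for Lum, with 1 transcript, so their order depends on it.

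The remaining small proteoglycans varied more between libraries than between groups. Prelp, which links basement membranes to collagen, had 28.4, 91.6, 28.8, 30.3 and 14.8 CPM in ointment ulcers and 14.2, 25.6, 27.3, 10.9 and 9.63 CPM in saline ulcers. Its log2 fold change of 1.15 (SE 0.50, edgeR adjusted p = 0.274) rested on ointment 2 and was 0.54 without it. Bgn (biglycan, the close relative of decorin) ranged from 208 to 1887 CPM in ointment ulcers and from 268 to 1709 CPM in saline ulcers. Ointment 1 and 3 had 1887 and 1510.3 CPM and saline 5 had 1709 CPM, and the other 7 libraries had at most 806 CPM. Fmod (fibromodulin) ranged from 5.34 to 33.8 CPM in ointment ulcers and from 9.22 to 15.4 CPM in saline ulcers. Ogn (mimecan) reached 378 CPM in ointment 4 and lay at 82.6 to 117 CPM in the other ointment libraries and at 110.4 to 173 CPM in saline ulcers. Aspn (asporin) ranged from 135 to 681 CPM in ointment ulcers and from 271 to 579 CPM in saline ulcers, and Podn (podocan) from 15.4 to 42.1 CPM in ointment ulcers and from 25.7 to 58.7 CPM in saline ulcers. Of the 50 genes, 25 overlap an annotated gene on the opposite strand. Omd, Ogn and Aspn lie within the span of Cenpp on the other strand, and Prelp overlaps an antisense gene; the counting is not stated to use strand, so their reads may include those of these partners.

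Of the large proteoglycans, Acan (aggrecan) differed most, at a low level. It had 0.937, 0.262, 0.562, 1.29 and 0.416 CPM in ointment ulcers, against 2.60, 3.47, 3.41, 2.94 and 1.47 CPM in saline ulcers, and ointment 4 came closest to saline 5. Behind these values stood 14 to 72 estimated counts per ointment library and 89 to 216 per saline library. The log2 fold change was -2.0 (SE 0.45, 95% interval -2.99 to -1.0, edgeR adjusted p = 0.0585), and it passed the threshold with DESeq2 (adjusted p = 0.00036), with limma voom (adjusted p = 0.0417) and in edgeR without ointment 4 (adjusted p = 0.0368). Aggrecan is best known from cartilage and is also made in the sheath around hair follicles. The cartilage markers Col2a1, Col9a1 and Matn1 were under 1 CPM in every library, and each was at 0 in some. Of the 7 cartilage and tendon markers, 4 could be tested, 2 with a positive and 2 with a negative log2 fold change (median -0.18, range -1.03 to 0.14). Of these 4, edgeR called 0, 1 had unadjusted p under 0.05, DESeq2 called 1 and limma voom 0. Summed, the 7 reached 31.0 to 63.3 CPM in ointment ulcers and 56.7 to 78.0 CPM in saline ulcers. Sox9, a transcription factor of cartilage and of hair follicles, had the most negative fold change of the 4 and was named after its values were seen. It averaged 17.9 ± 6.16 CPM in ointment ulcers and 36.6 ± 7.78 CPM in saline ulcers (log2 fold change -1.03, SE 0.25, edgeR adjusted p = 0.0709), and every ointment library lay below every saline library. The 9 hair follicle markers summed to 13 to 40.0 CPM in ointment ulcers and 38.0 to 689 CPM in saline ulcers. By edgeR, 7 of the 9 were called lower, where 0.983% of all genes tested were. Saline 5 was the lowest saline library both for Acan and for the hair follicle markers. The order differed elsewhere: saline 1 had the highest hair follicle sum, 689 CPM, but less Acan than saline 2, 3 or 4. Within the ointment group, ointment 5 had the highest hair follicle sum and ointment 4 the highest Acan. The part of either marker list in the Acan values was not tested.

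Neither of the abundant large proteoglycans passed the test. Hspg2 (perlecan, of basement membranes) had 458, 248, 356, 359 and 235 CPM in ointment ulcers and 343, 429, 376, 299 and 438 CPM in saline ulcers. Vcan (versican, which binds hyaluronan in provisional matrix) had 244, 269, 261, 154 and 321 CPM in ointment ulcers and 159, 284, 117, 224 and 266 CPM in saline ulcers. Both genes overlapped widely between the groups. The hyaluronan synthases were low and uneven: Has1 ranged from 2.42 to 14.7 CPM in ointment ulcers and from 0.549 to 21.5 CPM in saline ulcers. Has2, the main synthase of fibroblasts, ranged from 5.93 to 18.5 CPM in ointment ulcers and from 1.83 to 16.2 CPM in saline ulcers. Has3 ranged from 1.85 to 18.4 CPM in ointment ulcers and from 2.54 to 13.6 CPM in saline ulcers.

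The elastic fibre and microfibril genes showed no called change: 0 of 13 passed with edgeR, 2 had unadjusted p under 0.05, DESeq2 called 1 and limma voom 0, and the median log2 fold change was 0.03. Mfap4, a microfibril-associated protein and the most abundant of them in TPM, had 367, 93.3, 299.9, 387 and 75.6 CPM in ointment ulcers, against 463, 409, 455, 167 and 414 CPM in saline ulcers. Ointment 2 and 5 were lowest and saline 4 was next. Fbln2 (fibulin-2) had 977, 625, 798, 697 and 432 CPM in ointment ulcers and 711, 904, 620.1, 618 and 858 CPM in saline ulcers, an overlap of nearly the whole range. Emilin2, a glycoprotein at the surface of elastic fibres that leukocytes can also express, had 212, 302, 256, 148 and 474 CPM in ointment ulcers and 90.3, 179.6, 155, 158 and 147 CPM in saline ulcers. All ointment libraries but ointment 4 lay above every saline library (log2 fold change 0.93, SE 0.30, edgeR adjusted p = 0.145; DESeq2 adjusted p = 0.0396). Beside these values, the 10 neutrophil markers summed to 2285, 5021, 3269, 1689 and 7824 CPM in ointment ulcers and 852 to 2729 CPM in saline ulcers, ointment 5 being highest and ointment 4 lowest within the ointment group for both. None of the 10 was called by edgeR, and 9 had unadjusted p under 0.05, where 17.1% of all genes tested did. DESeq2 called 7 and limma voom 0, and Ngp and Camp were at 0 in saline 1. Their part in the Emilin2 values was not tested.

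Elastin and the fibrillins, the body of the elastic fibre, did not differ beyond the spread between libraries. Eln averaged 144 ± 88.9 CPM in ointment ulcers and 189 ± 94.6 CPM in saline ulcers (SD, n = 5 each). Fbn1 averaged 833 ± 329 CPM in ointment ulcers and 777 ± 174 CPM in saline ulcers, and Fbn2, the fibrillin of developing tissue, 67.2 ± 29.6 CPM in ointment ulcers and 50.1 ± 15.1 CPM in saline ulcers. Fbln1 (fibulin-1) had the largest negative fold change of these 13 genes, at 59.5 ± 21.2 CPM in ointment ulcers and 93.4 ± 23.2 CPM in saline ulcers (log2 fold change -0.65, SE 0.28, edgeR adjusted p = 0.266). The elastin-binding Fbln5 averaged 73.3 ± 24.4 CPM in ointment ulcers and 74.9 ± 15.7 CPM in saline ulcers, and Efemp2 (fibulin-4) 164 ± 61.1 CPM in ointment ulcers and 160.2 ± 43.9 CPM in saline ulcers. Efemp1 (fibulin-3), Emilin1, Mfap2 and Mfap5 had log2 fold changes of 0.24, 0.26, -0.39 and 0.03, and edgeR adjusted p-values from 0.582 to 0.981; the sign for Mfap5 and Efemp2 turned with library sizes alone as scaling.

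The lysyl oxidases, which cross-link collagen and elastin, gave 0 of 5 calls with edgeR, DESeq2 and limma voom, and none had unadjusted p under 0.05. Lox, the most abundant in TPM, had 1505, 137, 166, 1030.0 and 1502 CPM in ointment ulcers, against 175, 853, 522, 1045 and 867 CPM in saline ulcers. Its level varied 10.9-fold between libraries, and ointment 2, ointment 3 and saline 1 lay far below the rest. Loxl2 was even by comparison, with 514, 317, 569, 399 and 457 CPM in ointment ulcers and 469.7, 610.3, 375, 522 and 461 CPM in saline ulcers. Loxl3 had 43.2, 51.1, 75.9, 57.1 and 70.2 CPM in ointment ulcers and 50.3, 65.9, 21.7, 53.0 and 38.0 CPM in saline ulcers (log2 fold change 0.38, SE 0.28, edgeR adjusted p = 0.562), the smallest p of this family. Loxl1 averaged 120.0 ± 27.5 CPM in ointment ulcers and 139 ± 21.8 CPM in saline ulcers, and Loxl4 6.52 ± 3.87 CPM in ointment ulcers and 6.90 ± 3.44 CPM in saline ulcers.

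Of the adhesive and matricellular glycoproteins, 0 of 13 passed with edgeR, 5 had unadjusted p under 0.05 (4 higher, 1 lower), DESeq2 called 2 and limma voom 0, and the median log2 fold change was 0.27. Ccn2 (connective tissue growth factor, a matricellular protein induced by TGF-beta and by mechanical strain) had 86.0, 73.5, 81.4, 74.9 and 110.1 CPM in ointment ulcers, against 32.7, 61.3, 43.2, 54.4 and 50.8 CPM in saline ulcers. All ointment libraries lay above all saline libraries (log2 fold change 0.81, SE 0.18, 95% interval 0.41 to 1.22, edgeR adjusted p = 0.0584; DESeq2 adjusted p = 0.00197). Ccn2 passed in 0 of the 10 edgeR fits without 1 library, with edgeR adjusted p up to 0.130, and limma voom did not call it. Its relative Ccn1 (also called Cyr61), named after its values were seen, had 131, 89.8, 166, 97.6 and 182 CPM in ointment ulcers and 40.7, 123, 42.3, 70.3 and 82.4 CPM in saline ulcers. For Ccn1 only saline 2 lay inside the ointment range (log2 fold change 0.89, SE 0.33, edgeR adjusted p = 0.201). Ccn2 (chromosome 10, 24595442 to 24598683 on GRCm38) overlaps a transcript on the other strand and Ccn1 overlaps none.

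Thbs1 (thrombospondin-1, which is released by platelets, made by macrophages and can activate latent TGF-beta) had the largest positive fold change of the 50 genes and was also chosen after its values were seen. It had 2007, 4386, 1387, 607 and 5144 CPM in ointment ulcers, against 115, 1238, 548, 1002 and 498 CPM in saline ulcers. All ointment libraries but ointment 4 lay above every saline library, and the 10 values spanned 44.6-fold (log2 fold change 1.99, SE 0.69, edgeR adjusted p = 0.175; DESeq2 adjusted p = 0.0276). As with Emilin2, ointment 5 and 2 were highest and ointment 4 lowest in its group, as they were for the neutrophil marker sums, whose part was not tested. Thbs2, a fibroblast thrombospondin, averaged 1077 ± 497 CPM in ointment ulcers and 1046 ± 164 CPM in saline ulcers. Thbs3 averaged 96.6 ± 35.9 CPM in ointment ulcers and 122 ± 26.2 CPM in saline ulcers, and Thbs4, a thrombospondin of tendon and muscle, 185 ± 102 CPM in ointment ulcers and 145 ± 39.7 CPM in saline ulcers.

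Sparc and Spp1, the 2 genes with the highest TPM, varied widely between libraries and were not called. Sparc had 7363, 3239, 7392, 2323 and 1573 CPM in ointment ulcers and 2665, 3439.6, 2138, 4204 and 5724 CPM in saline ulcers. Ointment 1 and 3 were the highest of the 10 and ointment 5 the lowest. Spp1, a cytokine-like adhesive protein made by macrophages, had 1321, 1366, 1317, 1216 and 1397 CPM in ointment ulcers, against 136, 2022, 641, 865 and 1479 CPM in saline ulcers. The ointment libraries lay within 1.15-fold of each other, and the saline libraries lay on both sides of them and spanned 14.9-fold (log2 fold change 0.36, SE 0.53, edgeR adjusted p = 0.806; 0.07 without saline 1). The 11 macrophage markers summed to 3310 to 4299 CPM in ointment ulcers and 1458 to 2987 CPM in saline ulcers. None was at 0, and 3 of 11 were called higher by edgeR (Adgre1, Cd68 and Trem2), where 0.692% of all genes tested were. Saline 1 had the lowest sum, as for Spp1. Saline 2 had the next lowest sum, 1732 CPM, but the highest Spp1 of the 10 libraries. The part of the macrophage markers in the Spp1 values was not tested.

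None of the other adhesive genes passed the threshold. Tgfbi (a TGF-beta-induced collagen-binding protein) averaged 1053 ± 215 CPM in ointment ulcers and 753 ± 118 CPM in saline ulcers (log2 fold change 0.48, SE 0.17, edgeR adjusted p = 0.169). Tnxb (tenascin-X, a dermal glycoprotein whose loss makes skin lax) averaged 114 ± 43.9 CPM in ointment ulcers and 205 ± 80.1 CPM in saline ulcers (log2 fold change -0.85, SE 0.32, edgeR adjusted p = 0.209). Tnc (tenascin-C, typical of provisional matrix) averaged 1484 ± 378 CPM in ointment ulcers and 1454 ± 791 CPM in saline ulcers. Fn1 (fibronectin) was among the steadiest, at 913 to 1346 CPM in ointment ulcers and 999.5 to 1353 CPM in saline ulcers. Postn ranged from 1346 to 5031 CPM in ointment ulcers and from 2635 to 7119 CPM in saline ulcers.

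Many of these genes varied between libraries, and their lowest values gathered in a few of them. Between the highest and the lowest of the 10 libraries, 22 of the 50 genes spanned at least 4-fold and 6 at least 10-fold (Acan, Has1, Has2, Lox, Thbs1 and Spp1). These spans were not counted over all genes tested, so they do not show that the 50 genes varied more than others. The lowest library of the 10 was ointment 2 for 15 genes and ointment 5 for 16, together 31 of 50, where those libraries were the lowest for 25.7% of all genes tested. These genes made up 10 of 13 elastic fibre genes and 7 of 9 small proteoglycans, but 6 of 13 adhesive glycoproteins and 2 of 6 large proteoglycans and hyaluronan synthases. Saline 1 was the lowest library for 10 genes, among them Thbs1, Spp1, Has1 and Ccn2, and ointment 1 the highest for 14. Saline 1 was thus lowest for 20% of the 50 genes and for 12.5% of all genes tested, and ointment 1 was highest for 28% of the 50 and for 9.64% of all genes tested. The sum of the 12 fibroblast markers, most of it from 3 collagen genes, was also lowest in ointment 2 and 5 of all 10 libraries. It was 56789, 22103, 44285, 37984 and 16824 CPM in ointment ulcers 1 to 5, and none of the 12 was at 0. None of the 12 was called by edgeR, 2 had unadjusted p under 0.05, and DESeq2 and limma voom called 0. Without the 3 collagen genes that make up most of that sum, the other 9 markers gave 1654, 1228, 1960.1, 2322 and 1743 CPM in ointment ulcers and 1286, 1642, 1526, 1207 and 1683 CPM in saline ulcers. Ointment 5 then lay above every saline library, and saline 4 was the lowest of the 10 libraries, followed by ointment 2. The part of fibroblast content in these genes was not tested.

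**Figure D4:**
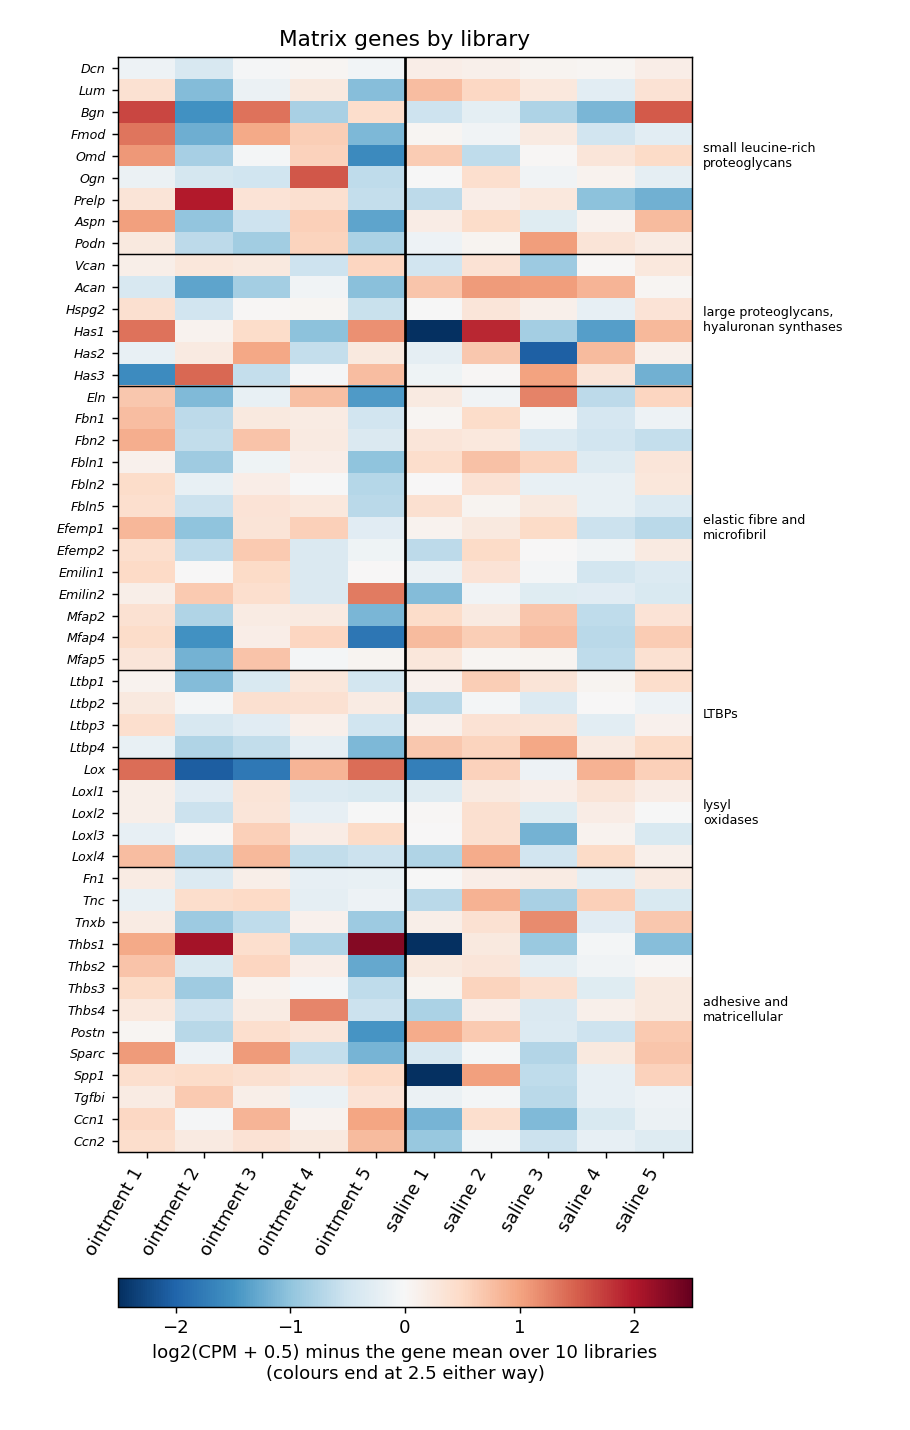
Each gene's log2(CPM + 0.5) in each library minus its mean over the 10 libraries, ointment libraries left of the line and saline libraries right, grouped by role. The blue columns of ointment 2 and 5 run through the small proteoglycans and the elastic fibre genes, and saline 1 is blue for Has1, Lox, Thbs1 and Spp1.

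**Figure D5:**
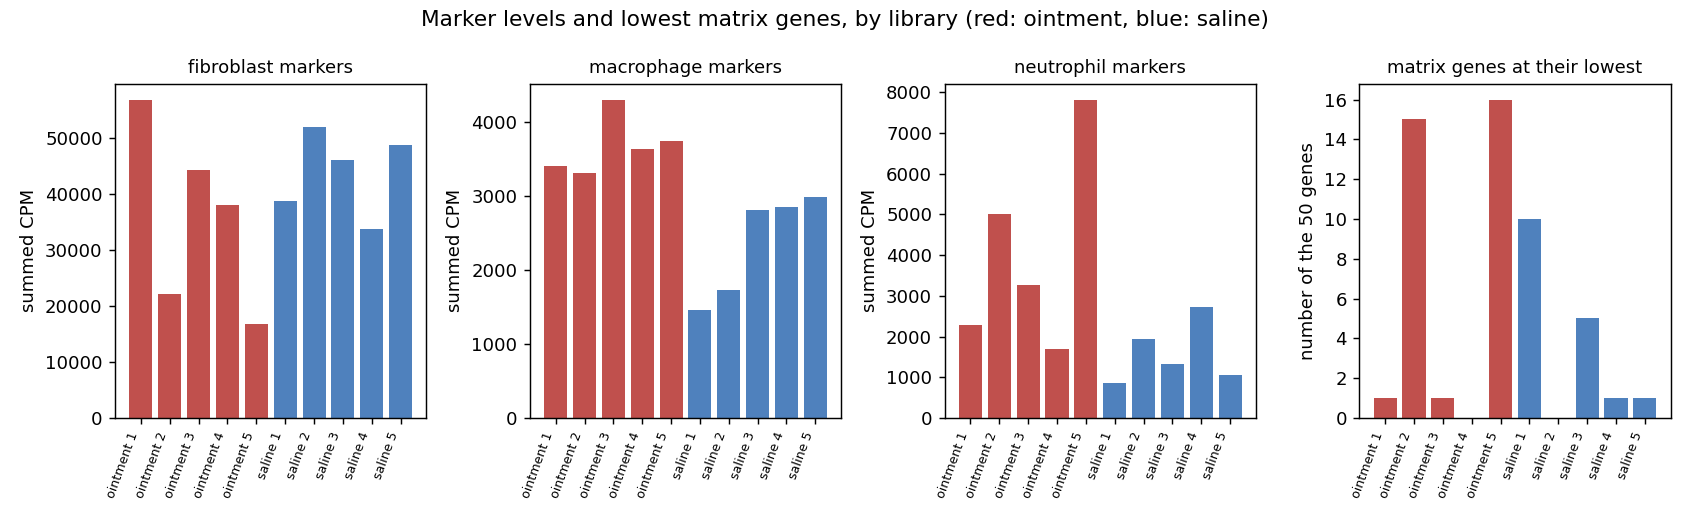
Summed CPM of the fibroblast, macrophage and neutrophil markers in each library, and the number of the 50 genes for which that library is the lowest of 10, ointment in red and saline in blue. Ointment 2 and 5 have the lowest fibroblast sums, 22103 and 16824 CPM, the highest neutrophil sums and the most genes at their lowest, 15 and 16. Collagen genes make up most of the fibroblast sum, and ointment 5 does not stand low without them.

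Other matrix genes were counted from lists of the same pathways. Of 13 collagens, edgeR called 0 and unadjusted p was under 0.05 for none, DESeq2 and limma voom called 0, and the median log2 fold change was -0.23; the smallest p-values belonged to Col12a1 (log2 fold change 0.54, edgeR adjusted p = 0.335) and Col11a1 (0.62, adjusted p = 0.495). Of 27 other matrix glycoproteins edgeR called 0, 9 had unadjusted p under 0.05 (3 higher, 6 lower) and DESeq2 and limma voom called 0, with a median of -0.28. The smallest p-values there were those of Pcolce2, an enhancer of procollagen cleavage (-0.78, adjusted p = 0.164), and Mmrn1, a platelet and endothelial protein (0.62, adjusted p = 0.181). Of 17 hyaluronan binding and turnover genes edgeR called 0, 4 had unadjusted p under 0.05, and DESeq2 and limma voom called 0. The hyaluronan-degrading Cemip2 (0.67, adjusted p = 0.166) and Hyal2 (-0.34, adjusted p = 0.167) led that list.

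Among the proteases and receptors of this matrix, 4 genes passed. Of all genes tested, 1.67% passed with edgeR and 17.1% had unadjusted p under 0.05. Of 24 proteases and inhibitors tested, 2 rose and none fell by the edgeR test; 12 had unadjusted p under 0.05 (8 higher, 4 lower), DESeq2 called 8 and limma voom 2. Mmp9, a gelatinase that also cuts elastin, had 304, 476, 389.9, 282 and 592 CPM in ointment ulcers, against 55.3, 115, 74.8, 139 and 77.9 CPM in saline ulcers (log2 fold change 2.14, SE 0.30, edgeR adjusted p = 0.0143). Ctss, the elastin-degrading cathepsin S of macrophages, had 1279.7, 1379.7, 1780.3, 1151 and 1416 CPM in ointment ulcers, against 586, 715, 719.7, 820.2 and 821 CPM in saline ulcers (log2 fold change 0.94, SE 0.14, edgeR adjusted p = 0.0159). Of 19 matrix receptors 1 rose and 1 fell; 9 had unadjusted p under 0.05 (5 higher, 4 lower), DESeq2 called 5 and limma voom 2. Cd36, a thrombospondin-1 and fatty acid receptor of macrophages, fat cells and capillaries, had 985.5, 733, 716, 798 and 667 CPM in ointment ulcers, against 169, 191, 291, 224 and 193 CPM in saline ulcers (log2 fold change 1.87, SE 0.17, edgeR adjusted p = 0.00205). Itgb8, the integrin chain that activates latent TGF-beta, had 11.8, 22.5, 12.4, 16.3 and 18.3 CPM in ointment ulcers, against 36.9, 26.3, 40.1, 38.7 and 29.7 CPM in saline ulcers (log2 fold change -1.08, SE 0.20, edgeR adjusted p = 0.0339).

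For each of these 4 genes the groups did not overlap, but they were picked by a test of the same values, so this adds no separate support. Over the whole lists, the groups did not overlap for 20.8% of the proteases and inhibitors tested and 15.8% of the receptors. Of all genes tested, 6.54% did not overlap. Mmp9, Ctss and Cd36 kept their calls in all 10 fits without 1 library, and Itgb8 kept its call in 3 of them, losing it without ointment 1, 3, 4 or 5 or saline 1, 3 or 4 with adjusted p up to 0.081. Within the ointment group, Mmp9 ran in the same order of libraries as the neutrophil marker sums, with ointment 5 and 2 highest and ointment 4 lowest. The macrophage marker values are those given with Spp1. The 5 adipocyte markers summed to 1078 to 1942 CPM in ointment ulcers and 476 to 1374 CPM in saline ulcers, 1 of 5 called higher and none at 0. Unadjusted p was under 0.05 for 4 (3 higher, 1 lower), DESeq2 called 4 and limma voom 0. The called gene, Lep, kept its call in 2 of 10 fits without 1 library. Fabp4, a fatty acid carrier, made up most of the sum, at 1239 ± 277 CPM in ointment ulcers and 613 ± 252 CPM in saline ulcers. Adipoq, the adipocyte hormone adiponectin, averaged 39.3 ± 12.2 CPM in ointment ulcers and 96.4 ± 63.1 CPM in saline ulcers (log2 fold change -1.29, SE 0.40, edgeR adjusted p = 0.137). The part of neutrophils, macrophages or adipocytes in these 4 genes was not tested.

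Of 28 enzymes that build glycosaminoglycan chains, edgeR called 1, 2 had unadjusted p under 0.05, DESeq2 called 2 and limma voom 0. The call was Hs2st1, a heparan sulfate 2-O-sulfotransferase, with 14.8, 58.5, 66.1, 57.8 and 53.7 CPM in ointment ulcers, against 13.8, 12.4, 15, 13.2 and 13.2 CPM in saline ulcers. Ointment 1 lay at the saline level and inside its range, and the other ointment libraries lay far above it (log2 fold change 1.89, SE 0.33, edgeR adjusted p = 0.0273). The call was kept in 2 of 10 fits without 1 library, those without ointment 1 or 4, and adjusted p in the others reached 0.070. Of 13 TGF-beta ligands, receptors and Smad regulators edgeR called 0, 1 had unadjusted p under 0.05, DESeq2 called 1 and limma voom 0. The repressor Ski had 48.4, 42.9, 122, 30.4 and 27.0 CPM in ointment ulcers and 123, 142, 163, 126 and 141 CPM in saline ulcers (log2 fold change -1.36, SE 0.38, edgeR adjusted p = 0.109). Every ointment library lay below every saline library, but ointment 3, at 122.4 CPM, came close to saline 1, at 123.4 CPM. Skil, a related repressor, was at 0.57 on the same scale (edgeR adjusted p = 0.392).

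Markers of other cell types were also summed in each library. The 5 pericyte markers, from cells around capillaries that also make matrix, summed to 139 to 440.5 CPM in ointment ulcers and 514 to 653 CPM in saline ulcers; edgeR called 0, unadjusted p was under 0.05 for 4, DESeq2 called 1 and limma voom 0. The 8 smooth muscle and myofibroblast markers summed to 759 to 1683 CPM in ointment ulcers and 865 to 1294 CPM in saline ulcers, with Myh11 called lower (edgeR adjusted p = 0.0400), a call kept in 0 of 10 fits without 1 library. Of the 8, 7 had a negative log2 fold change and Des a positive one of 0.97, with a median of -0.51. The 7 endothelial markers summed to 378 to 649 CPM in ointment ulcers and 596 to 862 CPM in saline ulcers; edgeR called 0, unadjusted p was under 0.05 for 3, DESeq2 called 1 and limma voom 0. The 8 skeletal muscle markers overlapped, at 1170.4 to 6657 CPM in ointment ulcers and 1727 to 5273 CPM in saline ulcers. None of these markers was at 0 in any library, and their part in the matrix genes was not tested.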

How the data were processed

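Per the labels' protocols, ulcer RNA was column-purified and SMARTer mRNA libraries were sequenced, a kit not stated there to keep strand. The submitters' processing notes name the build as GRCm38 (mm10). Which aligner and counter ran is not given in the sources used here. In 1 table, the authors deposited whole-number values per gene with no normalization, treated here as estimated counts because multiples of 4 are over-frequent: among low values, 4 occurs 9202 times and 3 and 5 occur 4235 and 5804 times. Every column matched a label, and totals were 47.8 to 62.9 M (mega).

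Counts were fitted with edgeR 4.0.16 in R 4.3.3 (filterByExpr, minimum count 10 and minimum total 15, TMM, robust quasi-likelihood F-test, group as the only term), with two-sided p-values adjusted by Benjamini-Hochberg over 18509 genes. Intervals are 95%, and SD is over 5 libraries. TPM used the joined length of all annotated exons of each gene from GENCODE release 21 on GRCm38, the source of gene positions. The pipeline was tested on simulated counts. The number of libraries limits the precision of these comparisons, since counting error is small at this depth for genes other than the lowest.

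The 50 genes, the pathway lists and the marker lists were chosen with earlier results of these data known. Values in every library are given for genes past the threshold and, in each role group, for the 2 genes highest in TPM and the gene with the smallest p; of the pathway lists, genes past the threshold or otherwise the 2 with the smallest p are named. Ccn1 and Thbs1 are also given in every library and were chosen after their values were seen. Tgfbi, Tnxb, Fbln1 and other members given by mean or range were added for completeness. The motifs and the fibroblast sum without collagens were chosen after the values were seen.

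Alternatives were DESeq2 size factors, library sizes alone, no filter, a filter at 5 CPM, the DESeq2 1.42.0 Wald test, voom in limma 3.58.1 with sample weights, the replicate number as a block, values divided by 4, each library left out, and 4 libraries per group (without saline 1 and ointment 5).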

Additional observations from a re-analysis of the deposited data

Results flagged for a closer look

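In 5 of the 100 groups of 5 libraries examined (50 genes in each of the 2 treatment groups), a single library stood apart from the other 4 by Dixon's criterion, and chance alone flags about 1 group in 20. Ogn was 378 CPM in ointment 4 and at most 117 CPM in the other ointment libraries. Prelp was 91.6 CPM in ointment 2 and at most 30.3 CPM in the others of that group. Bgn was 1709 CPM in saline 5 and at most 501 CPM in the other saline libraries. Mfap4 was 167 CPM in saline 4, where the other saline libraries had at least 409 CPM. Loxl1 was 101 CPM in saline 1, where the other saline libraries had at least 142 CPM.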

How the results depend on the processing

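The count of members called, 1 of 50, was also 1 with DESeq2 size factors, library sizes alone, no filter and the 5 CPM filter. It was 3 with values divided by 4 (Ltbp4, Acan and Ccn2), 6 with the DESeq2 test, 2 with limma voom, 0 with 4 libraries per group, and 0 to 2 with a library left out. The count over all genes, 310, was 59 with 4 libraries per group, 347 with values divided by 4, 1677 with DESeq2, 353 with limma voom, and 102 to 422 with a library left out. Under the replicate block, no gene was called (0 over all genes, 0 of the members). Same-numbered libraries deviated together with correlations of -0.08 to 0.06, and 1 of 5 correlated best with its own number. The labels give no batch, and 5 such correlations cannot show whether same-numbered libraries shared a handling step. The fold change of 34 members kept its sign under all 19 alternatives. The other 16, of which Thbs4 had the largest fold change at 0.35, turned in at least 1. With 4 libraries per group these were Omd (0.29), Tnc (-0.058), Has1 (-0.23), Lox (-0.21), Has3 (-0.011), Fbln2 (0.045), Fbln5 (0.20) and Efemp2 (-0.059). With library sizes alone they were Tnc (-0.026), Mfap5 (-0.028), Efemp2 (-0.024) and Thbs2 (-0.0021). With voom they were Fbln5 (0.021), Has3 (-0.12), Lox (-0.44) and Ogn (-0.12), and with the replicate block Efemp2 (-0.0033), Mfap5 (-0.045), Lox (-0.15), Has3 (-0.056), Ogn (-0.095) and Thbs2 (-0.093). Over the fits with a library left out, fold changes ran from -0.53 to 0.15 for Omd, -0.46 to 0.35 for Ogn, -0.065 to 1.21 for Has1, -0.19 to 0.31 for Has2, -0.31 to 0.52 for Has3 and -0.13 to 0.25 for Fbn1. They ran from -0.22 to 0.061 for Fbln2, -0.15 to 0.10 for Fbln5, -0.16 to 0.18 for Efemp2, -0.18 to 0.22 for Mfap5 and -0.35 to 0.22 for Loxl4. They ran from -0.14 to 0.33 for Tnc, -0.16 to 0.25 for Thbs2, -0.011 to 0.50 for Thbs4 and -0.0040 to 0.49 for Sparc. The cause of these changes was not tested. Acan has no value under the 5 CPM filter, and its counts, down to 14 in a library, limit it.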
